A study of Aspergillus nidulans with 6 samples.

Results

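The strain marker genes described here are pyrG (AN6157), riboB (AN0670), pyroA (AN7725) and nkuA (AN7753) of the filamentous fungus Aspergillus nidulans. They were chosen by their locus numbers, as loci whose state may differ between laboratory strains, and they are 4 of the 10983 features in the count tables. RefSeq gives the same symbols for pyrG, riboB and pyroA, and lists AN7753 as akuA. The libraries came from 2 strains: LO1362, which is mcrA+ and is called WT here, and LO8158, which is mcrA- and is called mcrA-deleted here after its label, with 3 libraries each. Both strains were grown in the same glucose minimal medium at 37 °C for 1 day, and that medium held uridine, uracil, pyridoxine and riboflavin. The labels name no allele of the 4 marker genes, in either strain. Each genotype was 1 strain, so a difference at any other locus and the mcrA deletion cannot be told apart. Nothing says that the replicates were separate cultures, so the p-values measure the spread between libraries, which may be technical.

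A marker gene of this kind lets a strain be followed or selected. Loss of pyrG, which encodes orotidine-5′-phosphate decarboxylase of pyrimidine synthesis, makes the fungus need uridine or uracil. Loss of riboB, of riboflavin synthesis, creates a need for riboflavin, and loss of pyroA, which encodes a subunit of pyridoxal phosphate synthase, creates a need for pyridoxine. The product of nkuA is the fungal counterpart of Ku70, a protein of non-homologous end joining, and strains without it are used because transforming DNA then integrates mostly at homologous sites. In common strains nkuA was replaced by argB, an arginine synthesis gene. A transcript with a point mutation can be counted like the normal transcript, so a count need not tell such an allele from an intact gene.

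Each library held between 3374534 and 6051839 counts. The feature of mcrA (AN8694, a locus number taken from background knowledge) held 674, 903 and 655 reads in the WT libraries, in replicate order, against 280, 422 and 273 in the mcrA-deleted ones, so that all 3 libraries labelled mcrA-deleted lay lower, at 48.0% of the WT mean in CPM. Why reads remained there was not tested. No label gives the deleted part of the gene or its locus number, which may be wrong, so directions below are those between the libraries as labelled. On the second principal component WT replicate 3 was set off from its group, and the mitochondrial share was 1.06% in mcrA-deleted replicate 1 against at most 0.159% elsewhere. Of 7852 tested features, 29.8% were called different between the strains at an adjusted p under 0.05, 16.1% as higher in LO8158 and 13.7% as lower. These were 1265 and 1078 features, and with library size alone in the fit 1660 and 639.

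All 4 marker genes had counts in all 6 libraries, and all 4 had a lower mean level in the libraries labelled mcrA-deleted. The fall passed the test in pyroA, to 51.7% of WT. The means of pyrG, riboB and nkuA, at 75.2%, 78.4% and 46.3% of WT, did not pass. Thus 1 of 4 was called lower and 0 of 4 higher (edgeR quasi-likelihood test), where 13.7% and 16.1% of all tested features were called. At an unadjusted p under 0.05 pyroA and nkuA were lower and none of the 4 higher. At that looser threshold at least 13.7% of all tested features were lower, and the exact share was not computed. The DESeq2 Wald test also called pyroA alone. Levels below are counts per 1000000 counts (CPM) on TMM-scaled library sizes, and fold changes are mcrA-deleted over WT on the log2 scale. In bulk RNA, fewer cells with a transcript and less transcript per cell cannot be told apart.

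**Figure D1:**
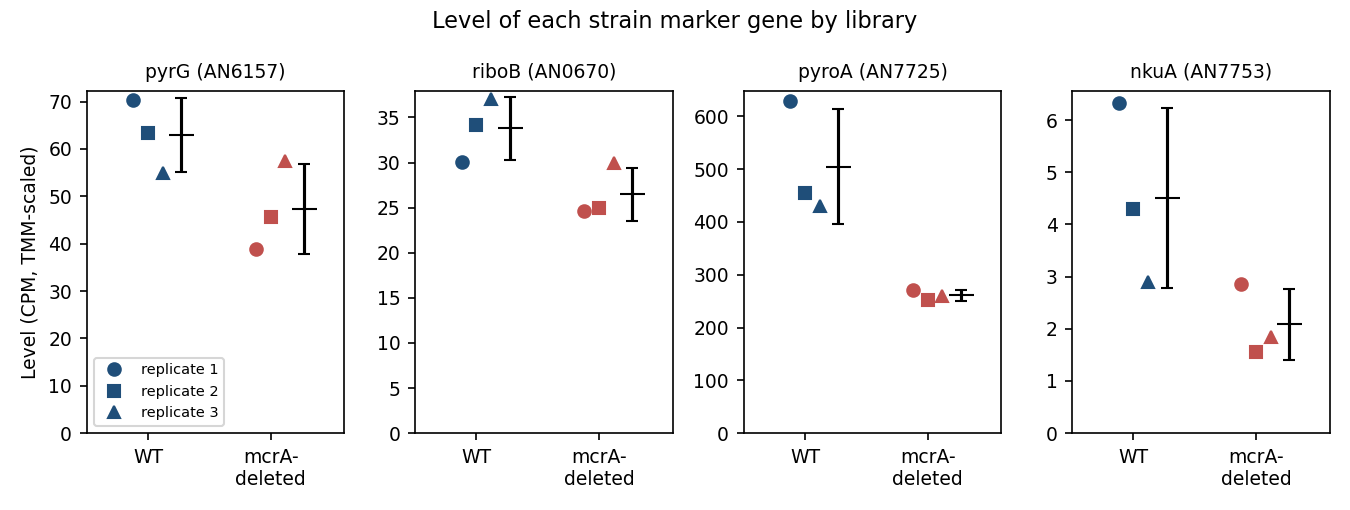
Level of pyrG, riboB, pyroA and nkuA in each library, in CPM on a linear axis that starts at 0 and has its own scale for each gene; symbols mark replicates 1 to 3, and the bar beside them is the mean ± SD of 3 libraries. The WT libraries lie above the mcrA-deleted libraries for pyroA by a wide gap (430.9 against 271.4 CPM at the nearest points), for riboB and nkuA by a narrow one, and the groups overlap for pyrG.

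The decarboxylase gene pyrG lies on chromosome I (1062885 to 1063768, plus strand, in the coordinates of the count tables). Its counts, in replicate order, were 323, 384 and 227 for WT against 136, 234 and 281 for mcrA-deleted. These are 70.4, 63.5 and 55.0 CPM against 38.9, 45.6 and 57.5 CPM. The groups overlapped: mcrA-deleted replicate 3 lay above WT replicate 3, and the other 2 mcrA-deleted libraries lay below every WT library. The means were 63.0 ± 7.73 CPM (WT) and 47.4 ± 9.45 CPM (mcrA-deleted; SD, n = 3 each), with a log2 fold change of -0.41 (SE 0.178; adjusted p = 0.121, edgeR quasi-likelihood test, Benjamini-Hochberg adjusted). Permuting the CPM over the libraries, exact and two-sided, gave p = 0.2.

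Of the vitamin genes, riboB lies on chromosome VIII (2832222 to 2833847, minus strand). It had 138, 207 and 153 counts in WT and 86, 128 and 146 counts in the mcrA-deleted libraries. In CPM these were 30.1, 34.2 and 37.1 against 24.6, 24.9 and 29.9, so that the lowest WT library and the highest mcrA-deleted library nearly met. On TMM-scaled sizes the groups did not overlap. The log2 fold change of -0.35 (SE 0.156) did not pass the test (adjusted p = 0.129, edgeR quasi-likelihood test). The means were 33.8 ± 3.51 and 26.5 ± 2.96 CPM (SD, n = 3 each). The exact permutation test (two-sided) reached p = 0.1, its lowest possible value for 3 against 3 libraries.

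The pyridoxal phosphate synthase gene pyroA (chromosome IV, 2484752 to 2486121, plus strand) fell. It had 2890, 2747 and 1779 counts in WT and 949, 1290 and 1273 counts in the mcrA-deleted libraries, which is 630.0, 454 and 430.9 CPM against 271.4, 251.4 and 260.7 CPM. Every mcrA-deleted library lay far below every WT library, and WT replicate 1 stood above the other 2 WT libraries. The mean went from 505 ± 109 CPM to 261.2 ± 9.98 CPM (SD, n = 3 each). The relative spread was 21.6% of the mean in WT and 3.82% in the mcrA-deleted libraries. On the log2 scale the difference was -0.95 (SE 0.181; adjusted p = 0.00879, edgeR quasi-likelihood test; lower in 3 of 3 mcrA-deleted libraries than in any WT library), and the exact permutation test gave its smallest p, 0.1. Of all tested features, 6.5% had a lower log2 fold change. The call held in all 14 alternative fits, between -1.08 and -0.77, including the fit without WT replicate 1 (-0.77; adjusted p = 0.019 in the quasi-likelihood test, against 2.1e-05 to 0.0418 over all alternatives).

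The end-joining gene nkuA (chromosome IV, 2598389 to 2600834, plus strand) was the least abundant of the 4 and was not empty in any library. It had 29, 26 and 12 counts in WT and 10, 8 and 9 counts in the mcrA-deleted libraries. The sums were 67 counts (exact Poisson 95% interval 51.9 to 85.1) and 27 counts (17.8 to 39.3). The intervals cover counting error only and treat each read as independent. Reads carried no molecular identifiers, so whether they were independent is not known. The intervals are not scaled for depth, which differed between the libraries, so they do not compare the strains. In CPM the libraries stood at 6.32, 4.30 and 2.91 in WT and at 2.86, 1.56 and 1.84 in the mcrA-deleted strain. WT replicate 3 and mcrA-deleted replicate 1 nearly met, although the groups did not overlap on TMM-scaled sizes. The means were 4.51 ± 1.72 and 2.09 ± 0.684 CPM (SD, n = 3 each). The log2 fold change of -1.14 was of the size seen for pyroA and mcrA, but its error was larger (SE 0.416) and it did not pass (adjusted p = 0.076, edgeR quasi-likelihood test). Leaving out WT replicate 3 gave -1.36 with an adjusted p of 0.0439, and leaving out mcrA-deleted replicate 1 as well gave -1.62 with 0.0286; over the 13 alternatives that tested nkuA the adjusted p ran from 0.0286 to 0.236. Positions of reads inside a feature are not part of the tables, so whether a stretch of the gene lacked reads was not tested.

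On TMM-scaled sizes 3 of the 4 genes, riboB, pyroA and nkuA, had groups that did not overlap with WT higher, where 23.9% of all tested features did. Of all tested features 49.9% had a negative log2 fold change, and the median of the 4 was -0.68 against 0.0 over all tested features. Without TMM scaling, with library size alone, the median over all tested features shifted upwards by 0.173 (log2). The 4 genes then remained negative, at -0.24 for pyrG, -0.17 for riboB, -0.79 for pyroA and -0.98 for nkuA, with pyroA alone of the 4 called. Relative to total counts alone, the groups of riboB and nkuA overlapped and those of pyroA stayed apart. For riboB, mcrA-deleted replicate 3 (146 of 4419465 counts) lay above WT replicate 1 (138 of 4739323). For nkuA, mcrA-deleted replicate 1 (10 of 3374534) lay above WT replicate 3 (12 of 4797268).

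**Figure D2:**
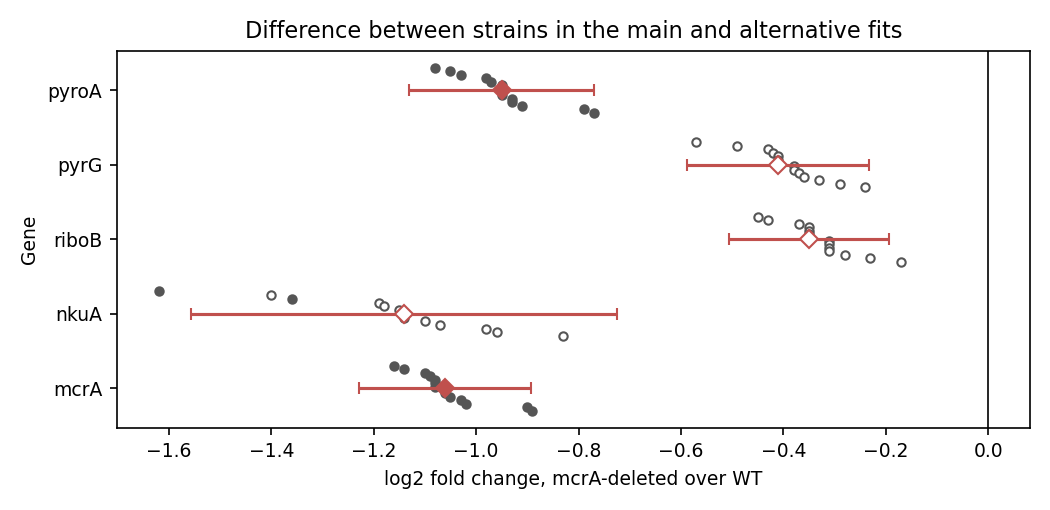
Log2 fold change of the 4 marker genes and of mcrA, mcrA-deleted over WT. The diamond with its bar is the estimate ± SE of the fit with all libraries and TMM scaling, circles are the alternative fits, and filled symbols have an adjusted p under 0.05; all points lie below 0, with pyroA and mcrA filled throughout and nkuA in 2 fits.

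The genes differed far more from each other than between the strains. Per kilobase of feature, with introns counted in the length, pyroA stood at 368.6 ± 79.5 CPM per kilobase in WT, pyrG at 71.2 ± 8.74, riboB at 20.8 ± 2.16 and nkuA at 1.84 ± 0.702 (SD, n = 3 each). The same order held in the mcrA-deleted strain, at 190.6 ± 7.28, 53.6 ± 10.7, 16.3 ± 1.82 and 0.853 ± 0.28 CPM per kilobase. In each strain, no library of one gene reached the range of the next gene in the order. Among the 10740 features with an AN number, pyroA was above 96.9% in WT and 95.5% in the mcrA-deleted strain, and pyrG above 87.2% and 84.3%. The percentiles of riboB were 66.4 and 59.0, and those of nkuA 31.8 and 23.6. For comparison, 15.6% of these features had no count in any WT library and 12.1% had none in any mcrA-deleted library. By its percentiles nkuA was low in both strains, and any feature with a count lies above the silent ones by definition.

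**Figure D3:**
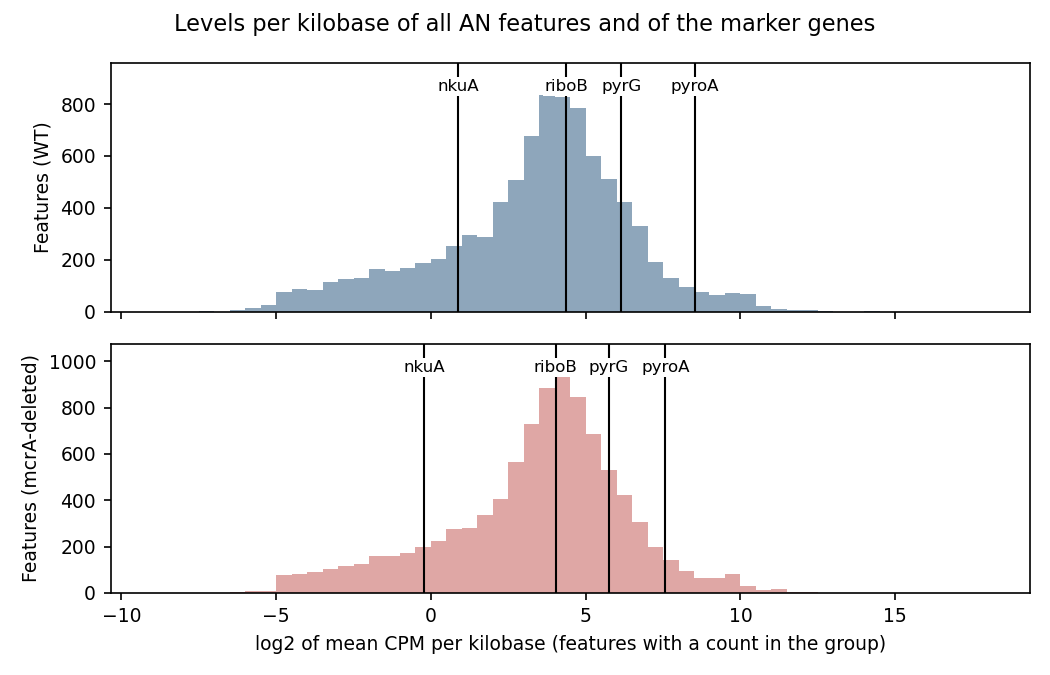
Number of features with an AN number by the log2 of their mean CPM per kilobase, in bins of equal width, for WT (top) and mcrA-deleted (bottom), leaving out features with no count in the group; vertical lines mark the marker genes. The order nkuA, riboB, pyrG, pyroA is the same in both panels, and the line of pyroA moves from 368.6 to 190.6 CPM per kilobase.

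Ratios between marker genes within a library do not depend on how libraries are scaled. The log2 ratio of pyrG to pyroA, per kilobase, was -2.53, -2.21 and -2.34 in WT and -2.17, -1.83 and -1.55 in the mcrA-deleted libraries, higher in each mcrA-deleted library than in any WT library, by a mean of 0.51. The ratio of riboB to pyroA went from -4.64, -3.98 and -3.79 to -3.71, -3.58 and -3.37, again without overlap, by 0.58. Both reached the smallest p of the exact two-sided permutation test, 0.1, and 0.3 after Benjamini-Hochberg adjustment over the 6 ratios, so neither passed. The ratio of pyrG to riboB overlapped between the strains, with a mean of 1.78 ± 0.329 in WT and 1.70 ± 0.147 in the mcrA-deleted strain (SD, n = 3 each). The ratio of pyroA to nkuA overlapped as well, with 7.69 ± 0.309 and 7.85 ± 0.398. The ratios of pyrG and riboB to nkuA were higher by 0.67 and 0.74 in the mcrA-deleted strain but overlapped, with mcrA-deleted replicate 1 inside the WT range. Single libraries moved these differences: that of riboB to pyroA was 0.33 without WT replicate 1, that of riboB to nkuA 0.38 in the same case and 1.09 when WT replicate 3 was left out, and that of pyrG to nkuA 1.05 without mcrA-deleted replicate 1. Over the fits without 1 library, the small differences of pyrG to riboB (-0.07) and of pyroA to nkuA (0.16) ran from -0.24 to 0.09 and from -0.01 to 0.38.

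**Figure D4:**
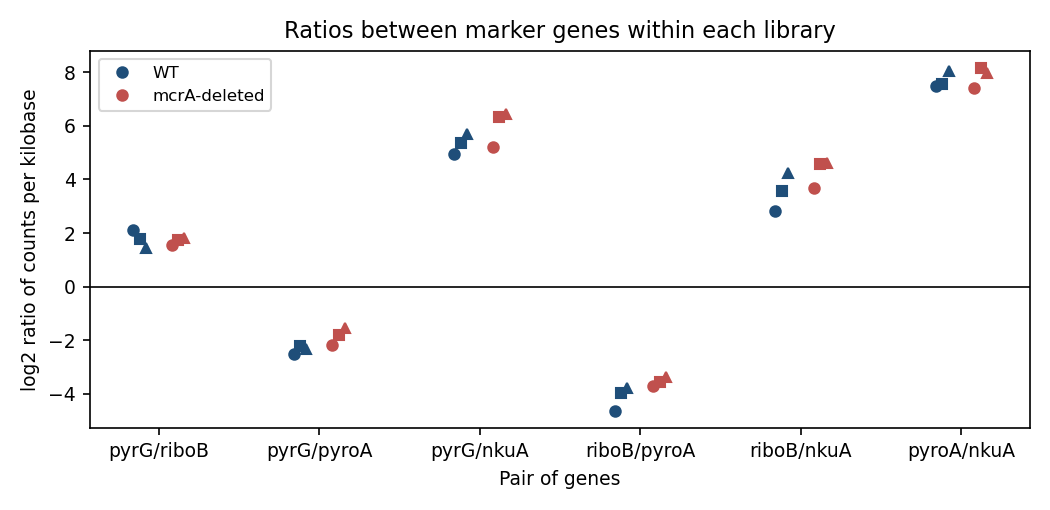
Log2 ratio of counts per kilobase for each pair of marker genes in each library, WT in blue and mcrA-deleted in red, with a circle, a square and a triangle for replicates 1 to 3. The pairs pyrG/pyroA and riboB/pyroA are higher in every mcrA-deleted library than in any WT library, and the other 4 pairs overlap.

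The next 2 features on each side of each marker gene in chromosome order were compared with it. Of these 16 neighbours 14 had enough counts to be tested, and 4 were called higher and 1 lower in the mcrA-deleted strain, where 16.1% and 13.7% of all tested features were. RefSeq gives no symbol for any of them. Beside pyroA, the 2 features at higher coordinates rose while pyroA fell: AN7727 had 61, 115 and 90 counts in WT and 1108, 1483 and 1326 in the mcrA-deleted libraries, or 18.0 ± 4.33 against 292.5 ± 22.9 CPM (SD, n = 3 each). It rose by 4.02 on the log2 scale (SE 0.206; adjusted p = 0.000178, edgeR quasi-likelihood test), and its groups were far apart. It lies 5634 bp from pyroA, on the opposite strand. AN7726, between them, rose by 0.48 (SE 0.143; adjusted p = 0.0416, edgeR quasi-likelihood test), from 36.3 ± 4.46 to 50.7 ± 3.25 CPM. That call was lost in all 6 fits that left out 1 library (adjusted p 0.0608 to 0.11). On the other side of pyroA, AN7724 (-0.37) and AN7723 (0.17), which overlap each other on opposite strands, did not pass.

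Beside pyrG, AN6159 and AN6156 rose, by 1.11 (SE 0.247) and 0.97 (SE 0.221), with adjusted p of 0.0152 and 0.0162 (edgeR quasi-likelihood test); without WT replicate 2 both calls were lost, and that of AN6156 also without mcrA-deleted replicate 2. AN6158 ends 1 bp before pyrG on the same strand, so reads across that border can belong to either transcript; its log2 fold change of -0.15 did not pass and turned to 0.03 with library size alone. AN6155 had 0 counts in all 6 libraries. Beside riboB, AN0672 (-0.49), AN0671 (-0.06) and AN0668 (-0.23) did not pass, and AN0669 summed to 28 counts in WT and 14 in LO8158, too few to be tested. AN0672 was called lower with a replicate block (-0.50; adjusted p = 0.0301) and with WT replicate 3 and mcrA-deleted replicate 1 left out (-0.75; 0.0166), against 0.0166 to 0.268 over all alternatives (quasi-likelihood test or DESeq2). AN0671, which overlaps AN0672 on the opposite strand, turned to 0.10 with library size alone.

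Beside nkuA, AN7752 fell by 0.72 (SE 0.155; adjusted p = 0.0138, edgeR quasi-likelihood test), from 98.1 ± 17.4 to 59.7 ± 4.60 CPM (SD, n = 3 each), and its groups did not overlap. It runs away from nkuA on the minus strand, with 162 bp between the features. Its call was lost without mcrA-deleted replicate 3 (adjusted p = 0.0511; 0.00275 to 0.0511 over all alternatives). AN11022 (-0.20), AN7754 (-0.08) and AN7755 (-0.18) did not pass. The nearest feature on the other side, AN7754, was low in both strains as well, with 2.13 ± 0.499 and 2.01 ± 0.202 CPM per kilobase. That was close to the 1.84 of nkuA in WT, but above its 0.853 ± 0.28 in the mcrA-deleted strain. pyroA and nkuA lie on the same chromosome, 112267 bp apart, with 31 AN features between them. Of the 27 tested among these, 5 were called higher and 2 lower, where 16.1% and 13.7% of all tested features were. The median log2 fold change of the 27 was -0.11 against 0.0 over all.

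**Figure D5:**
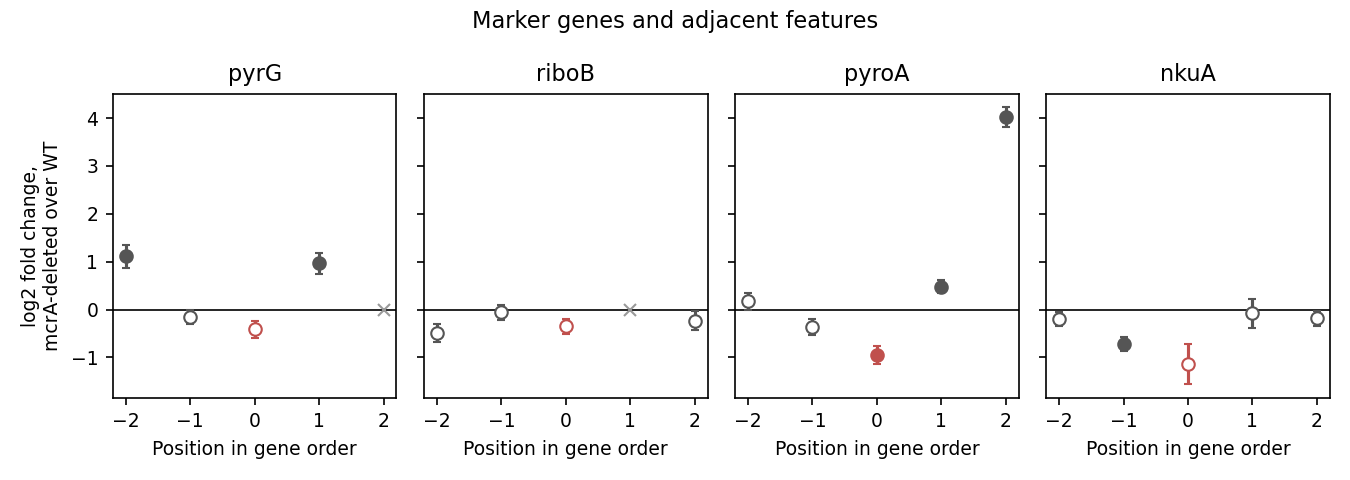
Log2 fold change (± SE, mcrA-deleted over WT) of each marker gene, in red at position 0, and of the 2 features on each side in chromosome order, in grey. Filled circles have an adjusted p under 0.05, and a cross on the 0 line marks a feature with too few counts to be tested; AN7727, at position 2 beside pyroA, stands at 4.02 while pyroA stands at -0.95.

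The pathway lists could be filled only where RefSeq gives a symbol. Pyrimidine, riboflavin and vitamin B6 synthesis and end joining then held no gene besides the marker genes. The arginine list held 3 genes, of which 1 fell and 2 did not pass, where 13.7% of all tested features fell. The gene that fell was arg2 (AN5867), known in Neurospora crassa as the small subunit of the arginine-specific carbamoyl phosphate synthetase. It went from 88.1 ± 22.3 to 53.4 ± 10.4 CPM (SD, n = 3 each), with a log2 fold change of -0.72 (SE 0.221; adjusted p = 0.0442, edgeR quasi-likelihood test). Without WT replicate 1 it stood at -0.50 with an adjusted p of 0.117 (0.0182 to 0.126 over all alternatives), and 5 of the 6 fits that left out 1 library lost its call.

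For argB (AN4409), which encodes ornithine carbamoyltransferase, the counts were 2124, 1931 and 1184 in WT and 1203, 1358 and 1027 in the mcrA-deleted libraries. In CPM it stood at 463, 319.1 and 286.8 against 344, 264.7 and 210.3, and the groups overlapped (log2 fold change -0.38, SE 0.248; adjusted p = 0.273, edgeR quasi-likelihood test). It was called lower only when both WT replicate 3 and mcrA-deleted replicate 1 were left out (-0.72; adjusted p = 0.048, against 0.048 to 0.664 over all alternatives). Its feature overlaps AN4408 on the opposite strand, and no source used here says whether counting used strand, so its level is uncertain to that extent. argEF (AN8770), of ornithine synthesis, stood at -0.11 (SE 0.192), changed sign with library size alone (0.05), and overlaps AN12080.

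Of the 10 listed marker genes of other laboratory strains, argB included, 2 rose and 8 did not pass, near the 16.1% of all tested features called higher, and the median log2 fold change was -0.31. Which genes were called depended on the libraries used, but veA (0.31 to 0.68) and wA (1.03 to 1.53) stayed positive in all alternatives that tested them. Without WT replicate 3, 1 gene was called lower and none higher, where 1171 of 8023 tested features were called lower. Without both that library and mcrA-deleted replicate 1, 3 were called lower (argB, trpC and metG) and none higher. In that fit 1361 of 7961 tested features were called lower. veA (AN1052), a regulator that couples light to development, had 1043, 1432 and 796 counts in WT and 1283, 1543 and 1344 in the mcrA-deleted libraries. It rose by 0.52 (SE 0.162; adjusted p = 0.0469, edgeR quasi-likelihood test), from 219 ± 23.1 to 314.3 ± 47.3 CPM, and its call was lost in all 6 fits that left out 1 library (0.0513 to 0.121). wA (AN8209, pksP in RefSeq), the polyketide synthase of the conidial pigment, had 18, 13 and 11 counts against 31, 24 and 37. It rose by 1.27 (SE 0.372; adjusted p = 0.0394, edgeR quasi-likelihood test), also a call that 4 of the 6 such fits lost (without WT replicate 2 or 3, or mcrA-deleted replicate 1 or 3), and it overlaps AN8208.

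The remaining markers were lower on average in the mcrA-deleted strain without passing. The laccase gene yA (AN6635), which turns the conidial pigment green, had 64, 64 and 70 counts in WT and 23, 46 and 61 in the mcrA-deleted libraries (-0.55, SE 0.297). The log2 fold change was -0.47 for metG (AN7051), of methionine synthesis, -0.34 for lysB (AN5206), of lysine synthesis, and -0.33 for trpC (AN0648), of tryptophan synthesis. It was -0.29 for facB (AN0689), the regulator of acetate use, -0.24 for niaD (AN1006), nitrate reductase, and -0.24 for pabaA (AN6550, pabA in RefSeq), of p-aminobenzoate synthesis. Without WT replicate 3, metG was called lower (-0.67; adjusted p = 0.0107, edgeR quasi-likelihood test, against 0.00908 to 0.369 over all alternatives), and so were metG (-0.73) and trpC (-0.57) with mcrA-deleted replicate 1 left out as well. All 10 had counts in all 6 libraries.

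For each marker gene the 3 tested genes with the most similar profile were found, by the root mean square difference of log2 CPM over the 6 libraries after centring each gene on its mean. The profile of pyroA was nearest to AN9418 (0.0612), AN7588 (0.0614) and AN3745 (0.0919), against a median of 0.567 over all 7851 genes. All 3 fell, by 0.96, 1.00 and 0.96 on the log2 scale, with adjusted p of 0.00925, 0.00361 and 0.00662 (edgeR quasi-likelihood test), in a comparison that uses the same libraries as the likeness. AN7588 also lies on chromosome IV. AN9418 overlaps AN9419 and AN7588 overlaps AN7587, so their levels are uncertain to that extent. Genes within 0.2 of the profile numbered 147 for pyroA, 305 for pyrG, 832 for riboB and 16 for nkuA.

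The genes nearest to pyrG were AN5708 (0.0582), AN0160 (0.0791) and AN10156 (0.0832), and those nearest to riboB were AN8712 (0.0433), AN0632 (0.0516) and AN3687 (0.0557); none of these 6 was called, although AN5708 was without WT replicate 3 (-0.52) and AN3687 with a replicate block (-0.38). The genes nearest to nkuA were AN4903 (0.124), listed as dbp8, an RNA helicase of ribosome synthesis in yeast, AN6338 (0.129) and AN4401 (0.16). AN4903 and AN6338 fell, by 1.07 and 1.04, with calls that 4 of the 6 fits without 1 library lost, and AN4401 (-0.73) did not pass. The likeness was measured over these same libraries, so falls near that of nkuA follow from the choice of genes. AN4401 was called lower without WT replicate 3 (-0.97), with that library and mcrA-deleted replicate 1 left out (-1.19) and with a replicate block (-0.68), and stood at -0.44 without WT replicate 1; its adjusted p ran from 0.00578 to 0.293 over the alternatives. AN8712, AN0632, AN3687 and AN4903 each overlap another feature, so their levels are uncertain to that extent. Among the marker genes themselves, pyrG and riboB were the most alike (0.209), then pyroA and nkuA (0.24), and riboB and nkuA the least (0.55).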

How the data were processed

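RNA was measured in 6 libraries, 3 a strain, made by a strand-specific kit from polyadenylated RNA. Per the file headers, the deposited values are raw counts per feature, 1 file a library, with 0 unmapped columns. The submitters' processing notes name CASAVA and HISAT (version 1). No source used here gives the counting tool, its use of strand or the annotation.

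Counts were tested as deposited over all features with edgeR 4.0.16 in R 4.3.3: filterByExpr (minimum count 10), TMM scaling and the two-sided quasi-likelihood test of a genotype term, Benjamini-Hochberg adjusted. SE is the absolute fold change over the square root of F. Profiles used log2 CPM with a prior count of 2. The script was tested on simulated data. Alternatives, 14 in all, changed scaling, filter, tool (DESeq2 1.42.0), block, depth or libraries.

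Members and lists were chosen with earlier results of these data known. Named genes are the members, mcrA, 2 features on each side, list members with a RefSeq symbol (ASM1142v1, names only; 10029 features matched, 778 with a symbol) and the 3 nearest profiles.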

Additional observations from a re-analysis of the deposited data

How the results depend on the processing

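The fall of pyroA and of mcrA kept its call in all 14 alternatives, and pyrG and riboB stayed uncalled in all 14 with a negative sign. nkuA passed in 2 fits, lacking WT replicate 3 (-1.36) or both that library and mcrA-deleted replicate 1 (-1.62), stood at -0.83 without WT replicate 1, and had too few counts for the fit at a mean count of at least 50. Nothing says that replicate numbers pair the libraries, and the correlations do not settle it. Deviations of same-numbered libraries correlated at 0.263, -0.076 and 0.168, and those of differently numbered libraries between -0.264 and 0.129. The replicate block gave 2503 called genes in place of 2343, and -0.93 for pyroA, -1.10 for nkuA, -0.42 for pyrG and -0.35 for riboB, with no call of a marker gene changed. Leaving out 1 library gave 1378 to 2667 called genes (2983 with the pair left out), the lowest without WT replicate 2, then 1462 and 1516 without mcrA-deleted replicates 2 and 3. Calls in the arginine list were 0 with library size alone or a mean count of at least 50, 2 with that pair of libraries left out, and 0 to 1 when 1 library was left out. Among the 10 other markers, where 2 were called higher, 1 was called higher with no count filter or a mean count of at least 50, none with thinned libraries (0 calls), and 0 to 1 when 1 library was left out; with the pair left out 3 were called, all lower. Uncalled values changed sign as follows. With library size alone, argEF (AN8770) went to 0.05, AN6158 to 0.03, AN7754 to 0.09 and AN0671 to 0.10. Over the fits that left out libraries, argEF ran from -0.34 to 0.02, AN0671 from -0.15 to 0.04, AN0668 from -0.37 to 0.03 and AN7754 from -0.27 to 0.04. The cause was not tested. The counts of nkuA, 8 to 29 a library, were low, and thinned libraries gave -1.19, uncalled.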
